A study of Homo sapiens with 8 samples.

Results

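The DLX and MSX genes encode 2 related groups of homeodomain transcription factors, and all 8 human genes named DLX1 to DLX6, MSX1 and MSX2 were followed through the differentiation of human embryonic stem cells towards pharyngeal endoderm. The members were found by matching gene identifiers to GENCODE 29 symbols, which gave 8 of the 58780 genes measured. RNA was sequenced from the H1 line, an established human embryonic stem cell line, at 4 stages with 2 libraries each. The stages are undifferentiated hESC, definitive endoderm (hDE), endoderm of the anterior foregut (hAFE) and endoderm of the pharyngeal foregut (hPFE). All 8 libraries therefore share 1 line, and the labels give no agent, dose or day for any stage. Nor do they name the culture behind each library, and p-values here cover only the spread between the 2 libraries of a stage, which may be technical. Per their titles, data for hESC and hDE were taken up again from earlier libraries, unlike those for hAFE and hPFE. Where hAFE or hPFE is compared with hESC or hDE, the effect of stage and that of the source of the library cannot be told apart.

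Homeodomain proteins bind DNA through a helix-turn-helix fold whose last helix, the recognition helix, lies in the major groove. The DLX genes lie in linked pairs, and in vertebrate embryos their nested expression in the neural crest mesenchyme of the pharyngeal arches patterns the upper and lower jaw downstream of endothelin signalling. They also act in placodal ectoderm, limb, bone and forebrain inhibitory neurons. MSX genes are classic targets of BMP signalling in the tissues of the face, limb and tooth. Pharyngeal endoderm lines the arches and sends signals to the mesenchyme in which many of these genes are best known.

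On hg38 with GENCODE 29, DLX1 (ENSG00000144355.14) lies at chr2:172084740-172089677 on the forward strand, and DLX2 (ENSG00000115844.10) at chr2:172099439-172102900 on the reverse strand. DLX4 (ENSG00000108813.10) lies at chr17:49968970-49974959 on the forward strand, and DLX3 (ENSG00000064195.7) at chr17:49990005-49995224 on the reverse strand. DLX6 (ENSG00000006377.10) lies at chr7:97005548-97011039 on the forward strand, and DLX5 (ENSG00000105880.6) at chr7:97020392-97024950 on the reverse strand. Each pair is thus convergent, with 9761 bases between DLX1 and DLX2, 15045 between DLX4 and DLX3, and 9352 between DLX6 and DLX5. MSX1 (ENSG00000163132.6) and MSX2 (ENSG00000120149.8) stand apart, at chr4:4859666-4863936 and chr5:174724533-174730893, both on the forward strand.

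The 48 bases that code for most of the recognition helix are shown for DLX2 to DLX6, MSX1 and MSX2, because they hold the feature that unites them and because near-identical stretches decide whether a read can be assigned to 1 member. They were read from GENCODE 29 transcripts, and capitals mark a base that differs from the most common base at that place over all 8 members, with ties given to the later letter of the alphabet.
DLX4: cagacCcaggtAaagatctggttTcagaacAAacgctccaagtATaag
DLX6: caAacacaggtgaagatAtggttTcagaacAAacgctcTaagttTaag
DLX2: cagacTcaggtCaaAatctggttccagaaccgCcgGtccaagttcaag
DLX3: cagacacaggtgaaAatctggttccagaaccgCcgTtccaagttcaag
DLX5: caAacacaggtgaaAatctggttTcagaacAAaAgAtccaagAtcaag
MSX1: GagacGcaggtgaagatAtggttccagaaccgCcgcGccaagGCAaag
MSX2: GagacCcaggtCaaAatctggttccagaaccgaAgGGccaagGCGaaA
The DLX genes are ordered here as DLX4 and DLX6, the forward-strand copies of their pairs, and then DLX2, DLX3 and DLX5, the reverse-strand copies. Over the 180 bases of the homeobox, MSX1 and MSX2 were 82.2% identical, and DLX4 and MSX2 were the least alike at 57.2%. Between partners of a pair, identity was 77.2% for DLX1 with DLX2, 76.1% for DLX4 with DLX3 and 73.3% for DLX6 with DLX5. The longest run shared exactly by any 2 of the members' transcripts was 28 bases, in MSX1 and MSX2. The deposited posterior standard deviation of the count was 0 for every member in every library, and every expected count of a member was a whole number. The processed pseudogene MSX2P1, chosen after its values were seen, shares a run of 59 bases with MSX2. It held an expected count of 15.1 and 5.12 in the hESC libraries and at most 1.9 in any other, and so was highest in the stage in which MSX2 was lowest.

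Most of the family lay near the limit of detection. Library totals ran from 12687128 to 17802890 counts, and the 8 members together drew 586 counts over all 8 libraries. The 6 DLX genes gave stage totals of 13 (hESC), 34 (hDE), 53 (hAFE) and 52 (hPFE) counts, while the 2 MSX genes gave 10, 14, 134 and 276 in the same order. MSX2 alone made up 77.9% of the members' counts in hAFE library 2, 66.7% in hPFE library 1 and 63% in hPFE library 2. In the other hAFE library its share was 30.3%, close to its 13.3% to 35.7% in hESC and hDE libraries. The filter on low counts kept 17446 genes and 3 of the 8 members, DLX3, MSX1 and MSX2, each of which was kept through the later stages in which it was high. DLX1, DLX2, DLX4, DLX5 and DLX6 were not tested in the fit. Since these are bulk samples, fewer cells of a type and less RNA per cell cannot be told apart. A stage total of 0 allows up to 3 counts over its 2 libraries, which in CPM (counts scaled to the size of the library, with TMM factors) is 0.0874 for hESC, 0.12 for hDE, 0.104 for hAFE and 0.0989 for hPFE. Such limits and the intervals below cover counting error only.

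**Figure D1:**
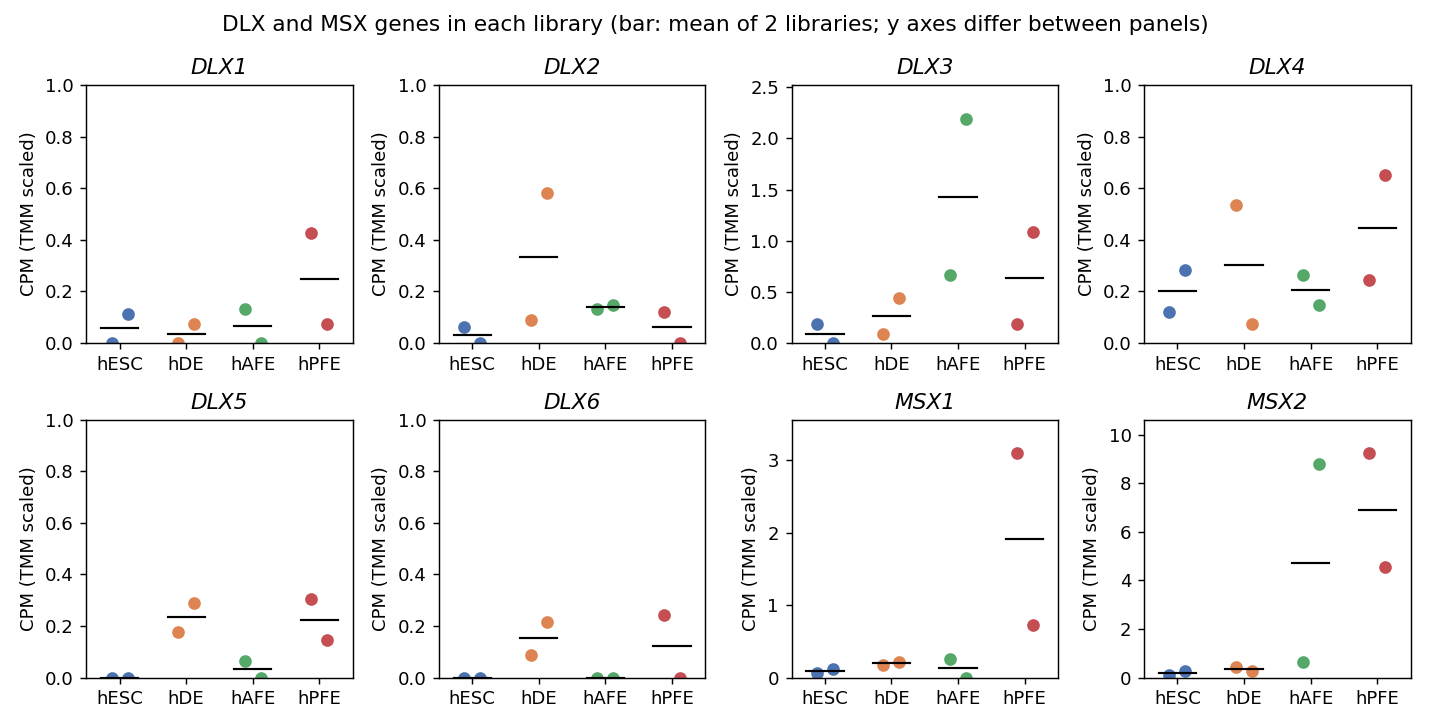
CPM of each DLX and MSX gene in the 2 libraries of each stage (points, replicate 1 on the left) with their mean (bar), on linear axes that differ between panels and start at 0. MSX2 reaches 9.23 CPM and MSX1 3.1 CPM in hPFE library 1, DLX3 reaches 2.19 CPM in hAFE library 2, and the other 5 genes stay under 1 CPM in every library.

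Set against other genes by TPM, a transcript share that allows for length, no member reached the median of the 19969 protein-coding genes at any stage. MSX2 stood highest, at 2.28 TPM (SD 0.587, n = 2) in hPFE, above 49% of protein-coding genes. Its rank was 24.9% in hESC, 30.7% in hDE and 46.6% in hAFE. MSX1 in hPFE, at 0.68 TPM (SD 0.467, n = 2), stood above 38.6% of protein-coding genes, and DLX3 in hAFE, at 0.335 TPM (SD 0.247, n = 2), above 36.7%. DLX5 and DLX6 were listed at 0 in hESC, and DLX6 in hAFE as well. Every other value for a member lay between the 17.2% of DLX2 in hESC and the 33.5% of DLX3 in hPFE, where between 3066 and 3652 protein-coding genes per stage were listed at 0.

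**Figure D2:**
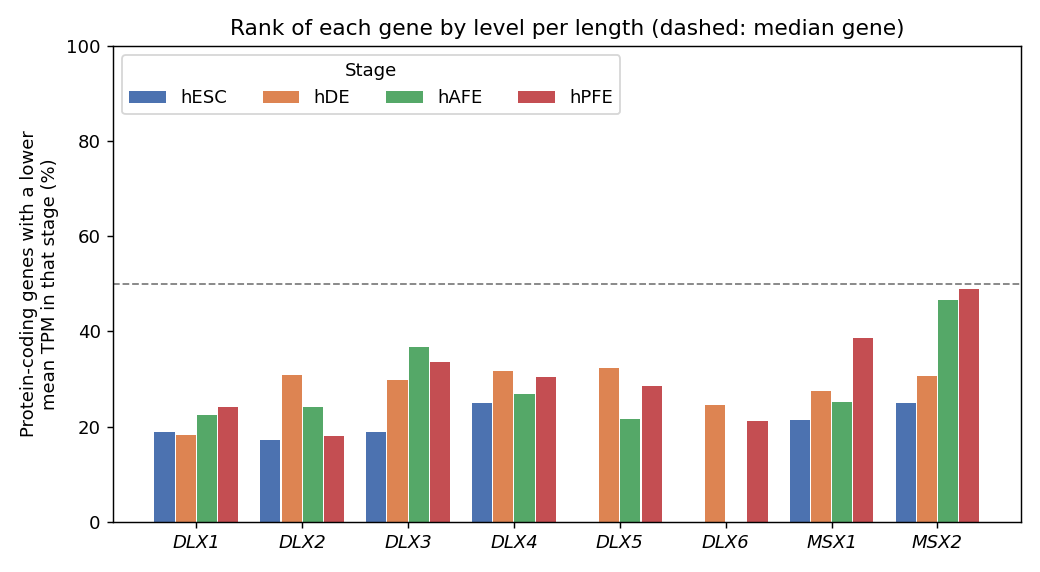
Share of the 19969 protein-coding genes whose mean TPM in the same stage is lower than that of each DLX or MSX gene (bars, linear axis from 0 to 100%). MSX2 reaches 46.6% in hAFE and 49% in hPFE, under the dashed line at the median gene, and DLX5 and DLX6 have no bar where they are listed at 0.

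MSX2, a transcriptional repressor that acts in skull, tooth and limb, was the member with the highest level and the widest change. It held 0.661 and 8.78 CPM in the hAFE libraries, against 0.445 and 0.29 CPM in the hDE libraries. In hPFE it held 9.23 and 4.55 CPM, against 0.12 and 0.283 CPM in hESC. Both hPFE libraries and hAFE library 2 stood far above the rest, and hAFE library 1 lay just above the highest hDE value.

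The step at which MSX2 rose was tested in one model over all libraries. From definitive endoderm to anterior foregut it was the 1 member called, where only 3 of the 8 were tested. Its log2 fold change was 3.67 ± 1.16 (SE) in hAFE against hDE. The adjusted p was 0.0476 in edgeR's quasi-likelihood test with Benjamini-Hochberg adjustment. In that comparison 30.2% of all genes tested were called, of which the higher calls made 15% of the genes and the lower ones 15.2%. This call lay at the threshold and rested on 1 library: without hAFE library 2 the log2 fold change was 0.86 and the edgeR adjusted p was 0.474. It also missed the threshold without any 1 of the hDE, hESC or hPFE libraries (edgeR adjusted p = 0.0527 to 0.226), and held without hAFE library 1 (0.00153). It was lost in 10 of the 16 alternative settings, over which the adjusted p ran between 7.65e-10 and 0.474.

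Against hESC, MSX2 rose by 5.03 ± 1.21 on the log2 scale in hPFE (edgeR adjusted p = 0.0121) and by 4.47 ± 1.2 in hAFE (edgeR adjusted p = 0.0216). Against hDE it rose by 4.22 ± 1.16 in hPFE (edgeR adjusted p = 0.0264). Between hPFE and hAFE the difference was 0.55 ± 0.91, with an edgeR adjusted p of 0.746 and overlapping libraries, and between hDE and hESC it was 0.81 ± 1.47 with an adjusted p of 0.686. The order of mean levels was therefore hESC, hDE, hAFE and hPFE from low to high. Neither hDE against hESC nor hPFE against hAFE passed the test. In CPM both hDE libraries lay above both hESC libraries, on 5 and 4 counts in hDE against 2 and 5 in hESC. In TPM these libraries overlapped, at 0.07 and 0.04 in hDE against 0.03 and 0.07 in hESC. Leaving out hAFE library 2 also changed other calls: hAFE against hESC missed the threshold at an edgeR adjusted p of 0.153, as it did without hESC library 1 (0.127) or 2 (0.098), and hPFE against hAFE became a call at 0.0324. The rise in hPFE against hESC missed the threshold without hESC library 1 (edgeR adjusted p = 0.0863) or 2 (0.0692), where 1 hESC library is assumed to vary like the other stages. The rise in hPFE against hDE missed it without either hDE library (0.121 and 0.161) or without hPFE library 1 (0.0821).

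MSX1, a repressor best known from tooth and palate, had its highest values in hPFE and lay near the floor in the other 3 stages. The hPFE libraries held 51 and 10 counts, or 3.1 and 0.722 CPM, against 1 and 2 counts, or 0.0601 and 0.113 CPM, in hESC. The hDE libraries held 0.178 and 0.217 CPM, and the hAFE libraries 0.264 and 0 CPM. Every hPFE value lay above every value of the other 3 stages, and hPFE library 1 lay well above hPFE library 2.

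In hPFE against hESC, 2 of the 8 members were called, MSX1 and MSX2, and only 3 of the 8 were tested. Of all genes tested, 45% were called, 21.6% higher and 23.3% lower. The summed MSX1 counts of 61 in hPFE and 3 in hESC gave a ratio of 23 (exact 95% interval 7.51 to 115), and the edgeR adjusted p was 0.0147. In hPFE against hDE, 2 members were called, again MSX1 and MSX2, where 33.6% of all genes tested were called, 16.6% higher and 17% lower. There MSX1 had a log2 fold change of 3.22 ± 1.02 and an edgeR adjusted p of 0.044. In hPFE against hAFE no member was called by edgeR at an adjusted p of 0.05, where 7.49% of all genes tested were, 4.77% higher and 2.71% lower. There 1 member, MSX1, had an unadjusted edgeR p under 0.05. DESeq2 called 0 members, but it gave an adjusted p for MSX2 alone (0.799) and none for MSX1 or DLX3. MSX1 differed between hPFE and hAFE by 3.73 ± 1.06 on the log2 scale, with an edgeR adjusted p of 0.0728.

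In order of mean CPM, MSX1 ran hESC, hAFE, hDE and hPFE from low to high, and no comparison among the first 3 passed the test. MSX1 had 5 counts in hDE and 3 in hESC, and both hDE values lay above both hESC values. Without hPFE library 1 its log2 fold change in hPFE was 2.93 against hESC (edgeR adjusted p = 0.095) and 1.81 against hDE (0.282). The call against hESC was also lost without hESC library 1 (0.11) or 2 (0.0935). The call against hDE was also lost without either hDE library (0.2 and 0.199), without either hESC library (0.0856 and 0.0859) and with DESeq2 (0.0809). Without hPFE library 2, hPFE against hAFE became a call (0.0379).

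DLX3, which acts in epidermis, hair, tooth and placenta, was the DLX gene with the highest level, and its highest values were in anterior foregut cells. The hAFE libraries held 10 and 30 counts, or 0.661 and 2.19 CPM, against 3 and 0 counts, or 0.18 and 0 CPM, in hESC. The hDE libraries held 0.089 and 0.434 CPM, and the hPFE libraries 0.182 and 1.08 CPM. Both hAFE libraries lay above both hESC and both hDE libraries, whereas the hPFE and hAFE libraries overlapped.

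In hAFE against hESC, 2 of the 8 members were called, DLX3 and MSX2, and only 3 of the 8 were tested. Of all genes tested, 39.8% were called, 19.2% higher and 20.6% lower. The summed DLX3 counts of 40 in hAFE and 3 in hESC gave a ratio of 15.9 (exact 95% interval 5.06 to 80.3), with an edgeR adjusted p of 0.046. None of the neighbours in its order of levels (hESC, hDE, hPFE, hAFE) differed beyond their spread. In hAFE against hDE the log2 fold change of DLX3 was 2.34 ± 1.16 (edgeR adjusted p = 0.166), and in hPFE against hESC it was 2.7 ± 1.38 (0.146). With no count filter both became calls (edgeR adjusted p = 0.016 and 0.0147). The call against hESC was lost without hAFE library 2 (edgeR adjusted p = 0.199), without hESC library 1 (0.0817) or 2 (0.219), without hDE library 1 (0.0691) or 2 (0.0711), and in the 3 limma fits on TPM (limma adjusted p = 0.0783 to 0.336). In hDE against hESC, 0 of the members were called by edgeR or DESeq2 and 0 had an unadjusted p under 0.05, where 41.9% of all genes tested were called, 20.3% higher and 21.6% lower.

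**Figure D3:**
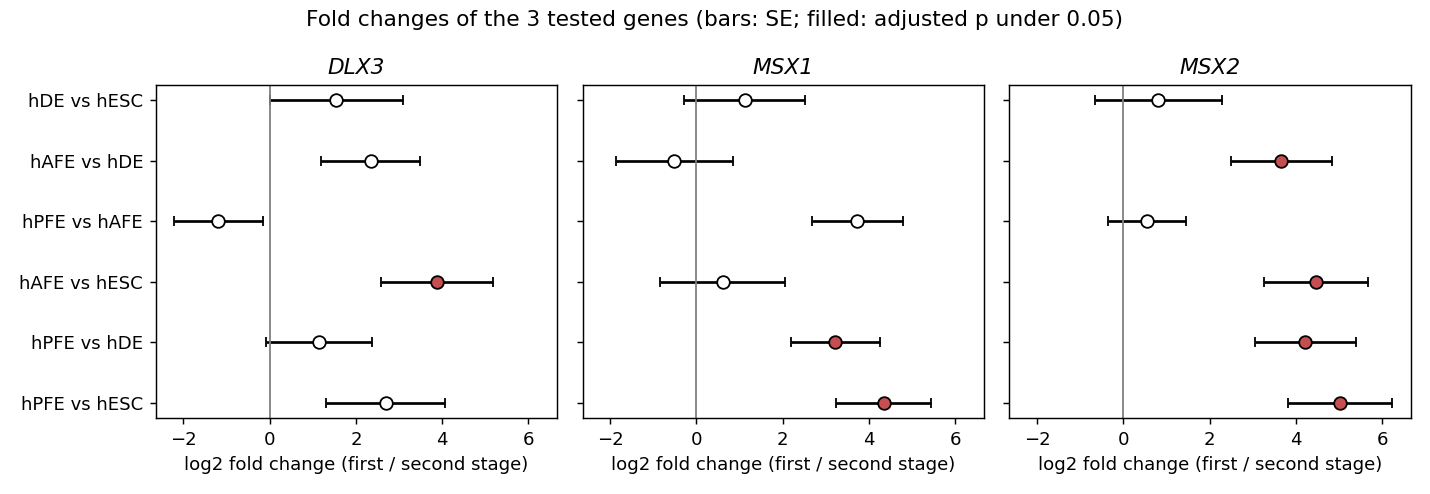
Log2 fold change of DLX3, MSX1 and MSX2 in the 6 comparisons of stages, first stage over second, with its standard error (bars) from the edgeR model. Filled points have an adjusted p under 0.05: DLX3 in hAFE against hESC, MSX1 in hPFE against hDE and hESC, and MSX2 in all 4 comparisons of hAFE or hPFE with hDE or hESC.

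Among the other DLX genes the counts were too low for the fit, and most changes were not detectable at this depth. DLX5 and DLX6, the pair that gives the lower jaw its identity in mouse arches, were both at 0 in hESC. DLX5 had 5 and 2 counts in the hPFE libraries, against 0 and 0 in hESC. This is 2.64 times a floor of 3 counts over the hESC stage, before any counting error in hPFE. DLX6 had 4 and 0 counts in the same hPFE libraries, or 1.51 times that floor, which rests on hPFE library 1. Its hPFE and hESC libraries overlapped. Its exact 95% interval in hPFE, 0.0359 to 0.338 CPM, held the hESC floor of 0.0874 CPM, so no least rise can be given. Both genes also had counts in hDE, 2 and 4 for DLX5 and 1 and 3 for DLX6, and nearly none in hAFE, with 1 and 0 for DLX5 and 0 and 0 for DLX6. Both genes of this pair thus had their counts mainly in hDE and hPFE, on 14 counts in all for DLX5 and 8 for DLX6. In the edgeR fit with no count filter the adjusted p of DLX5 in hPFE against hESC was 0.0836, and limma on log2(TPM + 1) with no filter made it a call.

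DLX1 and DLX2, which act with each other in forebrain inhibitory neurons and in the upper part of the arches, did not share an order. DLX1 had 7 and 1 counts in hPFE, against 0 and 2 in hESC, a ratio of 4.53 with an exact 95% interval of 0.904 to 43.8. DLX2 had 1 and 8 counts in hDE, against 1 and 0 in hESC, a ratio of 12.3 (1.71 to 541) that rests on hDE library 2. It had 2 and 2 counts in hAFE and 2 and 0 in hPFE. DLX4, a placental member of the family and the partner of DLX3, had 4 and 9 counts in hPFE, against 2 and 5 in hESC, a ratio of 2.1 (0.78 to 6.22). With 6 and 1 counts in hDE and 4 and 2 in hAFE, its libraries overlapped in all 6 comparisons, unlike those of DLX3.

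A pair of non-coding genes share the names of members. DLX6-AS1, the antisense transcript also known as EVF2 that spans DLX6 and has been linked to DLX5 and DLX6 regulation in mouse forebrain, had 28 and 4 counts in hPFE, against 2 and 0 in hESC. Its hPFE values of 1.7 and 0.289 CPM stood beside 0.12 and 0 CPM in hESC. The ratio of summed counts was 18.1 (exact 95% interval 4.62 to 156). It held 0.356 and 0.29 CPM in hDE and 0.595 and 0.146 CPM in hAFE, so hPFE overlapped both. The libraries are strand-specific per the labels, but no label or header states the strand setting of the counting, so reads of DLX6-AS1 and DLX6 may not be fully separate. DLX6-AS1 missed the filter and was called in hPFE against hESC by edgeR with no count filter (adjusted p = 0.000471). DLX2-DT, the divergent transcript beside DLX2, had 1 count in hPFE library 1 and 0 elsewhere.

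The bases before the MSX1 and MSX2 starts are shown because both genes were called higher in hPFE than in hESC and hDE. Each window holds 200 bases of RefSeq's GRCh38.p14 promoter table, with 50 bases between its end and the RefSeq start, at chr4:4859415-4859614 and chr5:174724332-174724531, both on the forward strand. Capitals mark TAATTA, a homeodomain core site, and CCAAT with its reverse complement ATTGG. These sites did not overlap one another.
MSX1: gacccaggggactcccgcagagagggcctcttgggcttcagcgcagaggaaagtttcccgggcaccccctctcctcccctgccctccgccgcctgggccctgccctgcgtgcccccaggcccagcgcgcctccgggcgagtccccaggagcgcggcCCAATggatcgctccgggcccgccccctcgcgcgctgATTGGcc
MSX2: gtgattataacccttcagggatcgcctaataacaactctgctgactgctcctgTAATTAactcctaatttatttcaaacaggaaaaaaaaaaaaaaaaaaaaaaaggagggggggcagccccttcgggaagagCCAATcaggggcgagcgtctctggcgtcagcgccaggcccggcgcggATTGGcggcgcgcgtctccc
TAATTA stood once in the MSX2 window and in no other of the 5 members' windows that the table held (DLX1, DLX2, DLX6, MSX1 and MSX2). Of all 35116 windows of the same length, 3.7% hold it. CCAAT stood on either strand in all 5 windows, and in 27.4% of all windows. GGCGCC, a GC-rich site bound by SMAD proteins, stood in the DLX6 window and not in the others, against 12.7% of all windows. A match of letters is a description and not a site of binding.

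The genes whose levels ran most like those of the members differed between MSX2 and MSX1. Over the 8 libraries and about 12057 protein-coding genes, log2 CPM of MSX2 ran most closely with BAMBI, a membrane pseudoreceptor that dampens BMP and TGF-beta signalling (Pearson r = 0.972), GPR155, a lysosomal membrane protein (0.968), and ISL1, a LIM homeobox factor of pharyngeal progenitors (0.956). MSX1 ran with DKK2, a secreted WNT modulator (0.973), CHL1, a cell adhesion molecule (0.972), and TMEM100, a membrane protein of endothelium and mesenchyme (0.972). DLX3 ran with KANSL1 (0.946), INA (0.925) and IFT52 (0.925). These values are a description over 8 libraries that share 4 stages.

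BAMBI held 98.9 and 34.4 CPM in hPFE, against 9.07 and 7.35 CPM in hESC, with 12.5 and 11.7 CPM in hDE. In hAFE it held 12.8 CPM in library 1 and 80.9 CPM in library 2, the library that was high for MSX2. DKK2 held 30.9 and 1.59 CPM in hPFE, against 0.18 and 0.396 CPM in hESC, with library 1 high as for MSX1. BAMBI and DKK2 were chosen for likeness over these same libraries, so the shared high library was favoured by that choice and is no separate result.

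BMP signalling was the pathway examined first, since MSX genes respond to it. Of the 24 genes listed, all 24 were tested, and in hPFE against hESC 20 were called higher, none lower and 4 did not pass, with a median log2 fold change of 2.84 beside 0.02 over all genes tested. Among ligands, BMP5 rose by 6.27 ± 0.67 (edgeR adjusted p = 0.000484) and GDF6 by 4.55 ± 1.2 (0.0173), the second of which was lost without either hESC library (0.076 and 0.12). NOG, the secreted antagonist noggin, rose by 6.32 ± 0.59 (0.000286). The receptor BMPR1A and the shared mediator SMAD4 did not pass, at 195 and 138 CPM in hPFE against 153 and 142 CPM in hESC.

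In hAFE against hDE, 10 of the 24 were called higher, 3 lower and 11 did not pass, with a median of 1.78, or 1.48 with the 1 gene at 0 in a stage set to its bound, beside 0.01 over all genes. GREM1, the antagonist gremlin, rose by 5 ± 1.24 (edgeR adjusted p = 0.0197), a call lost without hAFE library 2 (0.0644) or either hDE library (0.125 and 0.117). The mediator SMAD9 rose by 4.76 ± 0.87 (0.00575), which missed the threshold without hDE library 1 (0.0579), and the target ID1 rose by 4.38 ± 0.65 (0.00225). BMP2 fell by 3.4 on the log2 scale (0.207 SE, edgeR adjusted p = 5.48e-05), with 22.8 CPM in hAFE against 241 CPM in hDE, the stage at which it peaked while MSX2 was low. In hPFE against hAFE, 4 were called higher, none lower and 20 did not pass, with a median of 0.61 beside -0.03. NOG rose by 4.55 ± 0.51 (0.00426) and BMP5 by 2.99 ± 0.53 (0.019), the second at 0.0512 and 0.0509 without either hDE library.

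Some BMP genes were higher in hAFE library 2, as MSX2 was, and more were not. Of the 24 listed, 22 reached 1 CPM in at least 1 hAFE library, and 9 of these (40.9%) were more than 2-fold higher in library 2, 0 in library 1 and 13 within 2-fold, a count made after the values were seen. Over all genes tested, 6.83% of those at 1 CPM were more than 2-fold higher in library 2 and 5.25% in library 1. The excess was not particular to the BMP list. In lists described below, the library 2 share was 58.3% of 12 pharyngeal endoderm genes and 50% of 12 surface and placodal ectoderm genes. It was 27.3% of 11 endothelin and jaw patterning genes and 0% of 4 neural crest genes. The library 1 shares of these lists were 8.33%, 8.33%, 36.4% and 50% in the same order. Mesenchyme markers had 42.9% of 7 genes higher in each library. Receptors and mediators were among those that hardly differed, with 59.7 and 57.8 CPM for BMPR1B, 44.7 and 47 CPM for BMPR2, and 193 and 194.8 CPM for SMAD5 in the hAFE libraries 1 and 2. BMP4, the ligand named here after its values were seen, held 4.89 CPM in hAFE library 1 and 82.1 CPM in library 2, beside 10.9 and 14.9 CPM in hDE. GREM1 held 3.11 and 27.9 CPM in the same hAFE libraries, GDF6 0.397 and 5.78 CPM, and SMAD9 8.72 and 36.8 CPM. ISL1, which is not in the list and was chosen for its likeness to MSX2, held 5.22 and 39.8 CPM. ID3, also named after its values were seen, held 43.4 and 64.3 CPM, within 2-fold. Summed over the 24 genes, the list gave 652 CPM in each hESC library, 1131 and 1053 for hDE, 920 and 1205 for hAFE, and 1634 and 1241 for hPFE. CGA, a trophoblast hormone subunit, was also higher in hAFE library 2, with 4.56 CPM in library 1 and 69 CPM in library 2. It is 1 of 14 amnion and trophoblast markers, of which 7 reached 1 CPM in at least 1 hAFE library. Of these 7, 2 were more than 2-fold higher in library 2, 1 in library 1 and 4 were within 2-fold. Without hAFE library 2, 6 of the 24 BMP genes were called higher and 4 lower in hAFE against hDE, and 19 higher and none lower in hPFE against hESC. The part of these differences in the MSX2 result was not tested.

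**Figure D4:**
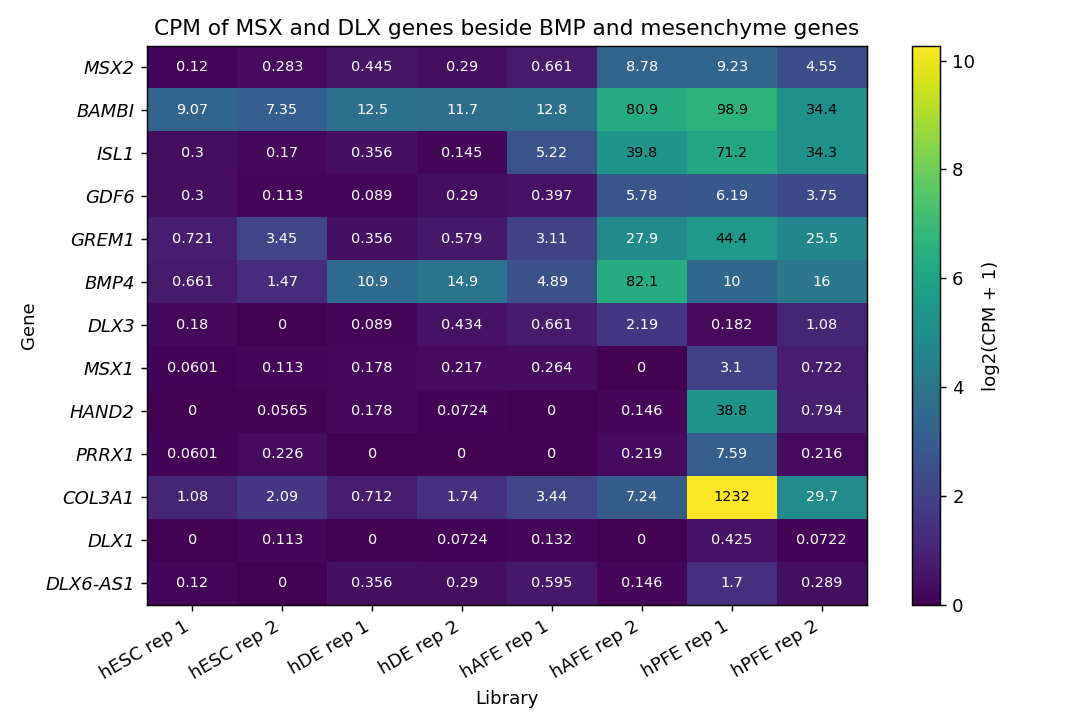
CPM of MSX and DLX genes in each library (numbers in cells, colour on a log2(CPM + 1) scale) beside BMP pathway and mesenchyme genes. MSX2, BAMBI, ISL1, GDF6, GREM1 and BMP4 are higher in hAFE library 2 than in library 1. MSX1, HAND2, PRRX1, COL3A1, DLX1 and DLX6-AS1 are higher in hPFE library 1 than in library 2. BAMBI and ISL1 were chosen for their likeness to MSX2 over these libraries.

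Many mesenchyme markers were higher in hPFE library 1, as MSX1 was. Of the 13 listed, 12 reached 1 CPM in at least 1 hPFE library, and 7 of these (58.3%) were more than 2-fold higher in library 1, 1 in library 2 and 4 within 2-fold. Over all genes tested, 8.37% of those at 1 CPM were more than 2-fold higher in library 1 and 4.75% in library 2. The excess was not particular to mesenchyme markers. The library 1 share was 58.8% of 17 endothelin and jaw patterning genes, 50% of 8 neural crest genes and 36.4% of 11 pharyngeal endoderm genes. It was 25% of 24 BMP genes and 0% of 12 surface and placodal ectoderm genes. The library 2 shares of these lists were 11.8%, 25%, 18.2%, 0% and 50% in the same order. All 13 markers summed to 215 and 208 CPM in hESC, 509 and 583 CPM in hDE, 274 and 102 CPM in hAFE, and 2719 and 791 CPM in the hPFE libraries 1 and 2. COL3A1, a fibrillar collagen, held 1232 and 29.7 CPM in the hPFE libraries, and COL6A3 75.5 and 1.44 CPM. PRRX1, a factor of limb and face mesenchyme named after its values were seen, held 7.59 and 0.216 CPM. LUM, the proteoglycan lumican, ran the other way, with 11.4 and 87.5 CPM. Of the 13 markers, 9 were tested, and 5 were called higher, none lower and 4 did not pass in hPFE against hAFE. The median log2 fold change was 3.68 beside -0.03, and without hPFE library 1, with 10 markers tested, 4 were called higher and none lower. DLX1 and DLX6-AS1 were also higher in hPFE library 1, at 0.425 and 1.7 CPM, than in library 2, at 0.0722 and 0.289 CPM. Whether the mesenchyme transcripts bear on MSX1, DLX1 or DLX6-AS1 was not tested.

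Genes of the endothelin and jaw patterning programme, in which DLX5 and DLX6 act in arch mesenchyme, were counted next. Of 24 listed genes, 15 were tested, and in hPFE against hESC 10 were called higher, none lower and 5 did not pass, with a median log2 fold change of 3.17 beside 0.02. EDN1, the endothelin ligand that arch epithelia secrete, named after its values were seen, held 24.4 and 26.5 CPM in hPFE, against 0.36 and 0.396 CPM in hESC. It held 9.12 and 39.6 CPM in hAFE, against 0.712 and 1.45 CPM in hDE, a rise of 4.45 ± 0.72 (edgeR adjusted p = 0.00326). Its receptor EDNRA did not pass in hPFE against hESC (1.24 ± 0.55, edgeR adjusted p = 0.0993). HAND2, a lower-jaw factor downstream of DLX5 and DLX6 in mouse, was called higher in hPFE than in hESC (650 counts against 1, edgeR adjusted p = 0.0108), with 38.8 and 0.794 CPM against 0 and 0.0565 CPM in hESC, so most of it lay in hPFE library 1. This call was lost without either hESC library (0.0784 and 0.0744). Without hPFE library 1, 18 of the list were tested, and 8 were called higher and 1 lower in hPFE against hESC.

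In hAFE against hDE, 7 jaw genes were called higher, 2 lower and 6 did not pass, with a median of 2.47, or 2.12 with the 2 genes at 0 in a stage set to their bound, beside 0.01. The nuclear receptor NR2F1 had 631 counts in hAFE against 2 in hDE, a ratio of 274 (exact 95% interval 75.6 to 2269, edgeR adjusted p = 0.00388). It held 36.8 and 5.41 CPM in the hAFE libraries, against 0 and 0.145 CPM in hDE, and was thus high in the library in which MSX2 was low. Its log2 fold change was 7.91, or 5.95 without hAFE library 1 (edgeR adjusted p = 0.00263), 8.71 without hAFE library 2 (0.000163), and 7.11 without hDE library 1 (0.0417). Its relative NR2F2 had 700 counts against 3, a ratio of 203 (69.1 to 986, edgeR adjusted p = 0.00122). GSC, an organiser and jaw factor, fell by 7.86 (0.544 SE, edgeR adjusted p = 8.36e-05), with 0.326 CPM in hAFE against 75.2 CPM in hDE. In hPFE against hAFE 1 was called higher, ECE1, which processes endothelin, and 14 did not pass.

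The members' closest relatives outside the family were alike in the share of genes that stayed low, but not in level. Summed, 22 NK-like homeobox genes gave 146 and 130 CPM in hESC, against 0.541 and 0.791 CPM for the 8 members. In hPFE they gave 6.5 and 9.74 CPM, against 13.8 and 7.2 CPM for the members. Of the 22, 13 stayed under 1 CPM in all 8 libraries, as 5 of the 8 DLX and MSX genes did, and 8 were tested. In hPFE against hESC 2 were called higher, 2 lower and 4 did not pass, with a median of -0.14 beside 0.02. BARX2, a factor of oral and pharyngeal epithelium, had 1.27 and 3.75 CPM in hPFE and was at 0 in hESC, which is at least 27.5-fold higher (edgeR adjusted p = 0.00436). EMX2, a forebrain and shoulder girdle factor, had a ratio of 12.5 (exact 95% interval 3.91 to 63.5, edgeR adjusted p = 0.00991), with 0.971 and 1.23 CPM in hPFE against 0.0601 and 0.113 CPM in hESC, a call lost without either hESC library (0.101 and 0.0816). NANOG, the pluripotency factor, fell to 3 counts in hPFE, against 4513 in hESC (edgeR adjusted p = 1.35e-05). In hAFE against hDE the list had 1 called higher, 4 lower and 3 that did not pass.

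Genes of 2 programmes in which DLX genes act elsewhere were also counted. Of 10 bone formation genes 7 were tested, and 3 were called higher, 1 lower and 3 did not pass in hPFE against hESC, with a median of 1.51. SPP1, the matrix protein osteopontin, had 137 and 251 CPM in hPFE, against 8.29 and 11 CPM in hESC, while SP7, IBSP and BGLAP stayed under 1 CPM in all 8 libraries. Of 14 markers of forebrain inhibitory neurons, 4 were tested, and none were called higher, 2 lower and 2 did not pass in hPFE against hESC. GAD2, SLC32A1, GSX1, GSX2, NKX2-1 and SP9 stayed under 1 CPM throughout. Those that did not pass had higher means in hPFE than in hESC. NRP2 had 84.7 CPM (SD 3.52) against 51.8 CPM (SD 6.63), and GAD1 2.97 CPM (SD 3.25) against 0.516 CPM (SD 0.39). SST, which was not tested, had 45 counts in hPFE against 1 in hESC, or a mean of 1.37 CPM (SD 1.93) in hPFE.

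Identity was read from landmarks and from markers of other tissues that express DLX or MSX genes. POU5F1, a pluripotency factor whose reads can be shared with close copies, fell by 5.61 (0.405 SE, edgeR adjusted p = 9.1e-05) in hDE against hESC. SOX17, an endoderm factor, had 3472 counts in hDE against 3 in hESC, and PAX9, a pharyngeal endoderm factor, rose by 8.96 ± 0.94 (edgeR adjusted p = 0.000449) in hPFE against hESC. Of 16 pharyngeal endoderm genes 13 were tested, and 10 were called higher and none lower in hPFE against hESC, with a median of 7.36, or 4.18 with genes at 0 in a stage set to their bound, beside 0.02. PAX1 held 26.5 and 17.3 CPM in hPFE and was at 0 in hESC, which is at least 255-fold higher. In hPFE against hAFE 2 of these 13 genes were called higher, none lower and 11 did not pass, with a median of -0.07 beside -0.03. All 8 stage landmarks did not pass in that comparison, so they did not separate these 2 stages. Of 17 surface and placodal ectoderm markers 13 were tested, and 11 were called higher and none lower in hPFE against hESC, with KRT5, KRT14, KRT17, TFAP2A and FOXI2 under 1 CPM in all libraries. Their summed level was 244 and 406 CPM in hAFE and 260 and 402 CPM in hPFE, against 111 in both hESC libraries, and thus was higher in library 2 of each later stage, as DLX3 was. TP63, a factor of stratified epithelium and pharyngeal endoderm, held 1.32 and 7.75 CPM in hAFE and 14.5 and 41.1 CPM in hPFE. The part of these markers in the DLX3 result was not tested.

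Of 13 neural crest markers 8 were tested, and 4 were called higher, 2 lower and 2 did not pass in hPFE against hESC. Those called higher were SNAI2, SOX9, ERBB3 and TFAP2A. SNAI2, a factor of epithelial-to-mesenchymal transition, held 4.74 and 14.1 CPM in hPFE, against 0.781 and 1.02 CPM in hESC (edgeR adjusted p = 0.00463). SOX9, a crest and cartilage factor, held 5.28 and 13.9 CPM in hPFE, against 3.9 and 2.94 CPM in hESC (0.0443), and the receptor ERBB3 held 82.1 and 95.1 against 60.5 and 60.8 CPM (0.0187). The SOX9 and ERBB3 calls were lost without hPFE library 2 (0.302 and 0.0719) and without either hESC library (0.124 and 0.207 for SOX9, 0.109 and 0.0975 for ERBB3), and that of SOX9 also without either hDE library (0.0597 and 0.0572). PAX3 and ZIC1, named after their values were seen and not tested, held 1.82 and 4.19 CPM in hPFE library 1 and 0.216 and 0.577 CPM in library 2. Those called lower were FOXD3 and SOX10. FOXD3 was at 0 in both hPFE libraries, against 6.91 and 8.71 CPM in hESC. SOX10 was also at 0 in both hPFE libraries and held 0.0661 and 0.0731 CPM in hAFE, and TFAP2B was at 0 in all 4 libraries of these stages. Summed, the list gave 103 and 100 CPM in hAFE and 125 and 151 CPM in hPFE, against 98.3 and 97.7 CPM in hESC. Of 14 amnion and trophoblast markers 10 were tested, and 8 were called higher, 1 lower and 1 did not pass in hPFE against hESC. Their sum was 125 and 147 CPM in hAFE and 191 and 620 CPM in hPFE, against 22.1 and 16.9 CPM in hESC, while CDX2, CGB5 and GCM1 stayed under 1 CPM. Whether such cells bear on any member's level was not tested.

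The genes beside the members did not share one course. Chosen after their values were seen, the nearest protein-coding neighbours of MSX2 are NSG2 and DRD1. NSG2 held 0.254 CPM in hPFE against 0.2 CPM in hESC, and DRD1 held 0.937 against 0.117 CPM (edgeR adjusted p = 0.013), a call lost without either hESC library (0.0844 and 0.095) or hPFE library 1 (0.0571). Beside MSX1, STX18 held 19 CPM in hPFE against 17 CPM in hESC, and CYTL1 held 0.831 against 4.11 CPM, and neither passed (edgeR adjusted p = 0.548 and 0.0555). Next to DLX1, METAP1D held 5.17 CPM in hPFE against 6.92 CPM in hESC, 2310 bases away (edgeR adjusted p = 0.291), and ITGA6, on the side of DLX2, was lower at 89.4 against 436 CPM (0.000592). Beside DLX3, ITGA3 was higher at 59.8 CPM in hPFE against 22.4 CPM in hESC (0.00766), a call lost without hESC library 2 (0.0663), and TAC4, beside DLX4, did not pass. Beside DLX6, SEM1 was lower at 26 CPM in hPFE against 37.9 CPM in hESC (0.0325), while SDHAF3, beside DLX5, did not pass (0.0734). The SEM1 call was lost in the 3 limma fits on TPM (0.541 to 0.618), in the 4 libraries alone (0.0653), and without either hESC library (0.065 and 0.206), hDE library 2 (0.0516) or hPFE library 2 (0.105).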

How the data were processed

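Strand-specific RNA-seq of H1 cells was measured in 8 libraries, 2 at each of 4 stages, after ribosomal RNA depletion, per the labels' protocols. The deposited tables hold RSEM estimated counts (expected counts, in which reads that match several genes are split), TPM values made by the authors with RSEM, and other columns such as posterior standard deviations, as the file headers show. The submitters' processing notes name RSEM, hg38 and DESeq2 with no version, and no aligner is named there or in the labels' protocols. Of 59526 rows, 58780 matched GENCODE 29, and the other 746 held 0 counts. Expected counts were rounded, filtered with filterByExpr (17446 genes) and fitted over all 8 libraries by the quasi-likelihood test of edgeR 4.0.16 (TMM factors, 4 residual degrees of freedom, Benjamini-Hochberg adjustment over all genes tested, threshold 0.05) in R 4.3.3. Library totals of 12687128 to 17802890 counts set the precision. Genes were named by fixed rules, which gave the members, transcripts that carry a member's symbol, stage landmarks, and from each list the genes with the widest called changes and the best expressed that did not pass, plus the 3 genes most correlated with each member over 1 CPM. The members and gene lists were chosen with earlier results of these data known. Stages were compared in 6 contrasts. Alternatives used RLE scaling, DESeq2 1.42.0, limma 3.58.1 on log2(TPM + 1) and log2(TPM + 0.1), other filters, the 4 libraries compared alone, a replicate block and each library left out. Ratios of summed counts carry exact 95% binomial intervals. The edgeR fit was also checked against simulated counts with known changes. It called 100 of 100 4-fold changes and 28 of 100 2-fold changes, with 8 false calls among 15743 genes tested. The changed genes were drawn at 1 CPM or more in hESC, with 1 fixed spread. The check therefore does not cover genes as low as the members in hESC.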

Additional observations from a re-analysis of the deposited data

How the results depend on the processing

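Calls of members depended on single libraries and on the filter. Called members numbered 1 in hAFE against hDE, 2 in hAFE against hESC, 2 in hPFE against hDE, 2 in hPFE against hESC and 0 in hPFE against hAFE. With 1 library left out, these counts ran from 0 to 1, 0 to 2, 0 to 2, 0 to 2 and 0 to 1 in that order. In hAFE against hDE, 2 were called with no count filter, and 0 with the replicate block or with limma on log2(TPM + 1), filtered or not. In the 4 libraries of that comparison alone no member passed the filter, so none could be called. In hPFE against hAFE, 1 was called with no count filter and 1 with limma on log2(TPM + 0.1). The filter of 1 CPM in 2 libraries, under which MSX1 was not tested, left 1 in hPFE against hESC and 1 against hDE. In hPFE against hDE, 1 was also left with DESeq2, with the replicate block, and with limma on log2(TPM + 1) with no filter. In hAFE against hESC, 1 was left in the 4 libraries compared alone, 0 with limma on log2(TPM + 1), filtered or not, and 1 with limma on log2(TPM + 0.1). In hPFE against hESC, DLX3 was called beside MSX1 and MSX2 with no count filter (adjusted p = 0.0147), and with limma on log2(TPM + 1) with no filter the count of 2 held DLX5 in place of MSX2 (0.0656). The cause of these changes was not tested.

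Over all genes, 7304 were called in hDE against hESC, and 4517 by limma on log2(TPM + 1) with no filter. In hAFE against hDE 5267 were called, and 8366 by limma on log2(TPM + 0.1). In hPFE against hAFE 1306 were called, 3234 with no count filter, 52 in the 4 libraries alone, and 812, 805 and 411 by limma with pseudocounts of 1 and 0.1 and with no filter. In hAFE against hESC 6938 were called, and 4290 and 3328 by limma on log2(TPM + 1) with and without the filter. In hPFE against hDE 5867 were called, and 10284, 10867 and 8806 by limma with pseudocounts of 1 and 0.1 and with no filter. TPM shifted the median of all genes against the TMM model by 0.91 on the log2 scale in hPFE against hDE, 0.7 in hAFE against hDE, 0.51 in hPFE against hESC, 0.29 in hAFE against hESC, 0.23 in hPFE against hAFE and -0.44 in hDE against hESC, with a pseudocount of 1. Leaving out 1 library gave 3695 to 8465 genes called in hDE against hESC, 2435 to 6363 in hAFE against hDE, 479 to 1552 in hPFE against hAFE, 3822 to 8422 in hPFE against hESC, 2899 to 8178 in hAFE against hESC and 2630 to 6468 in hPFE against hDE.

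Replicate numbers did not pair the libraries: deviations of libraries with the same number correlated at -0.041 to 0.061 over 9852 genes. With the replicate block, the edgeR adjusted p of MSX2 in hAFE against hDE was 0.0811 and that of MSX1 in hPFE against hDE 0.0542, and no other member's call changed. No result for a member or a gene in the text turned its direction while called. Depth limits the 5 DLX genes that were not tested, with 8 to 33 counts each over all libraries.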
